A study of Mus musculus with 10 samples.

Results

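The genes described here are 44 interferon-induced genes, chosen by name from what is known of the interferon response. They were looked up in a table of RNA levels of mouse bone marrow (BM). The choice was made with earlier results of these data known. Shares of members set beside shares of all genes or probe sets are therefore descriptions and not independent support. A gene was taken where a probe set of the array lists it as the only gene, with 1 probe set per gene, and 39 of the 44 were found among 19938 genes on the array. Of these, 36 are targets of type I interferon and 3 are GTPases induced mainly by interferon gamma (Gbp3, Irgm1 and Iigp1). The probe sets of Isg15, Gbp2, Ifi47 and Igtp list several genes, no probe set with Ifi44 alone was in the table used, and these 5 have no value here.

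The marrow came from C57BL6 mice that had been lethally irradiated and then reconstituted with fetal liver hematopoietic stem cells (FL-HSCs). Dams were fed a vitamin D-deficient or a vitamin D-sufficient diet from before pregnancy, and their embryos supplied the VD(−) or VD(+) donor cells, while all recipients were vitamin D sufficient. Each group holds 5 arrays, 3 of single samples and 2 of pools, and all recipients share the irradiation and the transplant. Donor livers were of mixed sex, recipients were of both sexes, in the labels the source is BM and the treatment field speaks of BM macrophages, and the labels give the mice an age of 8 weeks without saying at which step, while the paper's text and a legend name different times after the transplant. The labels do not tell whether a pool includes mice that were also hybridised singly, and p-values then reflect only how these arrays scatter, which may be technical. In whole marrow, fewer cells of a type and less RNA per cell cannot be told apart.

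Type I interferons bind a receptor on nearly all cells and activate a complex that includes STAT2 and IRF9, which binds the interferon-stimulated response element (ISRE) in the promoters of its target genes. The targets include sensors of viral nucleic acid, proteins that block viral translation and budding, and IRF7, which raises interferon production further. Interferon gamma acts through its own receptor, and its strongest targets include the large GTPases that attack intracellular parasites. In marrow, interferons drive hematopoietic stem cells into cycle, and mouse Irgm1 is known to protect these cells under interferon.

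Promoter windows of 6 members show the element that names the response, and how it sits in genes that behaved differently on the arrays. They run from 250 bases before to 50 bases after the RefSeq start in build GRCm38.p6, each 300 bases long, and are written 5′ to 3′ on the strand of the gene. Capitals mark each match to TTTCNNTTTC or its reverse complement GAAANNGAAA, the core of the ISRE. Ifit1, Bst2 and Rsad2 are antiviral type I targets with a core, and Irgm1 and Gbp3 are gamma-induced GTPases. Epsti1 is the member whose groups stood apart and has no core in this window. Irf7 and Oasl2, which are not printed, have no core in their windows either. The windows lie at chr19:34640639-34640938 on the plus strand (Ifit1), chr8:71537423-71537722 on the minus strand (Bst2), chr12:26456403-26456702 on the minus strand (Rsad2), chr14:77903989-77904288 on the plus strand (Epsti1), chr11:48871371-48871670 on the minus strand (Irgm1) and chr3:142559794-142560093 on the plus strand (Gbp3, the first of its start sites in the table).
Ifit1: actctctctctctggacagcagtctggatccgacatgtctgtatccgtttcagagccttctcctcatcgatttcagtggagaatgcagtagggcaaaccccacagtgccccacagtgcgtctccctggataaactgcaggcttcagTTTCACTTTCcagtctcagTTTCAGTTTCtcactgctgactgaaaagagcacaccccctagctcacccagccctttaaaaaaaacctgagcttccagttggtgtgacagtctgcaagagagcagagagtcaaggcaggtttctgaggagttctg
Bst2: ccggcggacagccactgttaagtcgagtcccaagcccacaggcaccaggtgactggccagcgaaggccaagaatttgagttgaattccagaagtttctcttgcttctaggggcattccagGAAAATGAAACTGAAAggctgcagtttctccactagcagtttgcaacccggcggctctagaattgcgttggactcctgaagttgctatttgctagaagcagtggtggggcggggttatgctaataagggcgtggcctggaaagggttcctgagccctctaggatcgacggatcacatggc
Rsad2: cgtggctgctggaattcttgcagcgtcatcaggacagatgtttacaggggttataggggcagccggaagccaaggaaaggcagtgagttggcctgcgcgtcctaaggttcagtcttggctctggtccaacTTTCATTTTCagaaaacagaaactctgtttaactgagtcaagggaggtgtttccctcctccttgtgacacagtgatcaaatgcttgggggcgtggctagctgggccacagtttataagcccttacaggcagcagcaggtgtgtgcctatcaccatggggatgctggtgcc
Epsti1: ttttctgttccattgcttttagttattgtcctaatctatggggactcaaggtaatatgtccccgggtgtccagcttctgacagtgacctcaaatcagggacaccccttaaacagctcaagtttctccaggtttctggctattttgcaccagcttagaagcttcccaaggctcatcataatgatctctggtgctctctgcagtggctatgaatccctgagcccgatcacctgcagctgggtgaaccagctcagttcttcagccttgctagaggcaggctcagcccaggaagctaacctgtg
Irgm1: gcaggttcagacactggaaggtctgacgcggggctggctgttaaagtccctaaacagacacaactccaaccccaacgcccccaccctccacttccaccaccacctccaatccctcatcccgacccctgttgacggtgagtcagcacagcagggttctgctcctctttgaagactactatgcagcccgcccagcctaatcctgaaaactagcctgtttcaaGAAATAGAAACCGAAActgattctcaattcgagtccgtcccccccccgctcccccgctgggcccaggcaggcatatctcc
Gbp3: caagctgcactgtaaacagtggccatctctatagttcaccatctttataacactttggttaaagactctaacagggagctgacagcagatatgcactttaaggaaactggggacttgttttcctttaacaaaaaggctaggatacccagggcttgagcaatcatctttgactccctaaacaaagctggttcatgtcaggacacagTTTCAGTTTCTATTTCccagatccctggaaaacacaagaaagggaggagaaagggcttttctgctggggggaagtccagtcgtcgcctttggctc

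The first base of the core lay 104 and 85 bases before the start in Ifit1 and 120 bases before it in Rsad2. In Bst2 it lay 130 and 124 bases before the start, in Irgm1 30 and 24 bases and in Gbp3 45 and 39 bases, and in each of these 3 genes the matches overlap in a run of repeats. RefSeq windows were found for 29 of the 39 members. A core was present in 14 of the 29 members (48.3%), against 3.99% of 27025 genes in the promoter table, and in 12 of the 27 type I targets with a window and both GTPases with one. The gamma-activated site TTCNNNGAA, which reads the same on both strands, was present in 5 of the 29 members (17.2%), against 9.55% of the genes in the table. The site in Bst2 begins 136 bases before the start and overlaps the core by position. A match describes letters in these windows and is not a measured site. Ifi27, Tor3a, Parp9, Parp14, Dhx58, Zbp1, Oas2, Usp18, Rtp4 and Iigp1 had no window in the table.

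The values are log2 array signals, with array medians between 4.74 and 4.80, and they are given below for single samples 1, 2 and 3 and then pools 1 and 2. Differences are log2 fold changes, VD(−) less VD(+). Several arrays of the VD(−) group stood apart in genes outside the interferon response. Genes of the Y chromosome (Kdm5d, Eif2s3y and Uty) averaged 6.64, 2.35, 2.44, 6.80 and 5.31 in the VD(−) arrays and lay between 2.25 and 2.56 in the VD(+) arrays, so VD(−) single 1 and both VD(−) pools held Y-linked RNA and no VD(+) array did at this level. The labels do not give the sex of a sample. A pre-B cell gene, Igll1, named after its values were seen, also differed among the VD(−) arrays. Igll1, a surrogate light chain of the pre-B cell receptor, was at 8.30, 6.16, 5.14, 8.51 and 7.07 in VD(−) and between 6.07 and 6.87 in VD(+). VD(−) single 1 and pool 1 were the highest and VD(−) single 3 the lowest of the 10 arrays. Of 9 B cell markers measured, Igll1 is 1 of the 2 with a log2 fold change above 0, and the other 7 had one below 0.

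Most interferon-induced genes lay lower on average in VD(−) than in VD(+) HSC recipient BM, but few differences were larger than the spread between arrays. Of the 39 members 30 (76.9%) were below 0 and 9 above, against 50.9% of all probe sets below 0. At a nominal p under 0.05 from limma, 4 members fell, Epsti1, Bst2, Rsad2 and Irf7, which is 10.3% of the members against 3.23% of all 35556 probe sets. None of the 39 rose, against 3.85% of all probe sets. At an adjusted p under 0.05 over all probe sets 0 members passed, against 0.118% of all probe sets, and by the methods' t-test 2 members were lower at a nominal p and 0 after adjustment. The groups did not overlap in 1 member, Epsti1, against 0.641% of all probe sets that were lower without overlap. The median log2 fold change was −0.087 over the 39 members and −0.0028 over all probe sets.

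**Figure D1:**
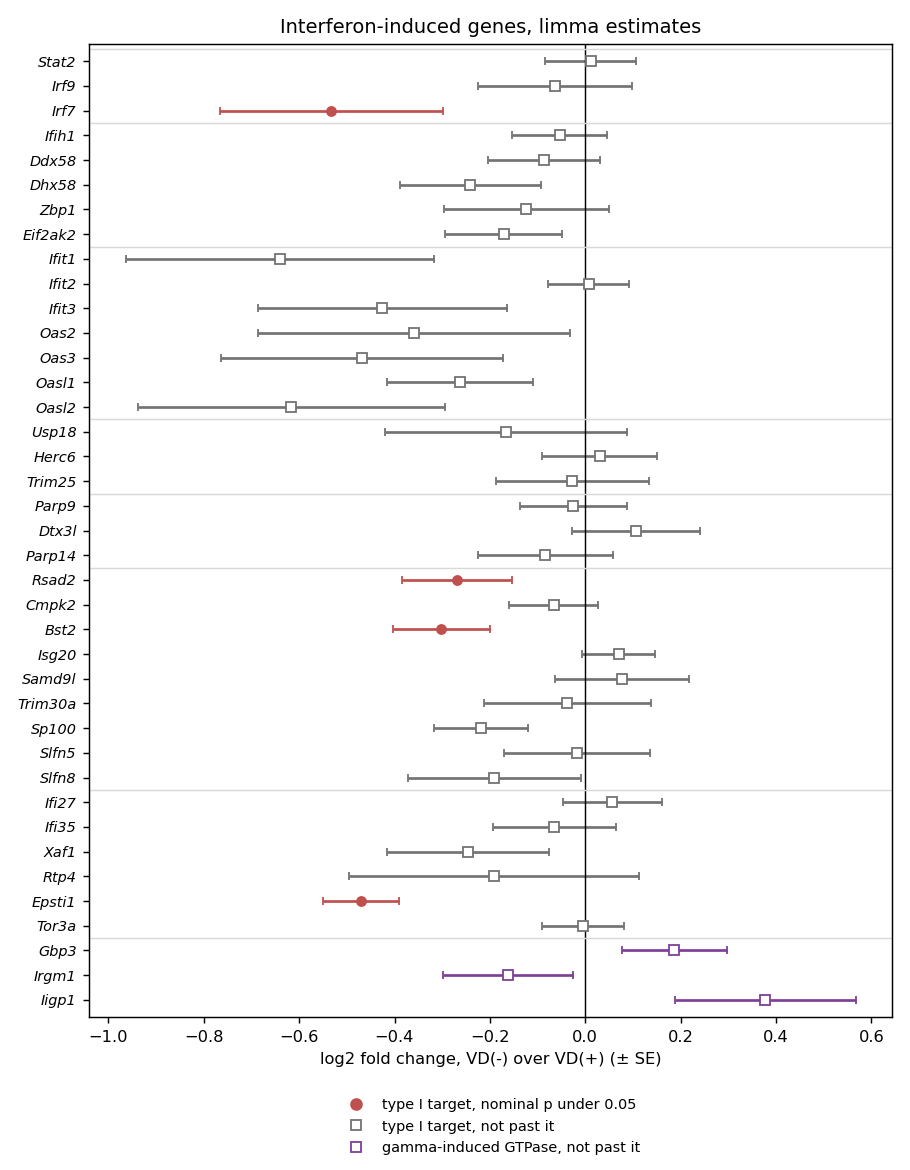
Log2 fold change (x axis, VD(−) over VD(+) recipient BM) of 39 interferon-induced genes (rows, in role groups parted by grey lines), with bars of 1 SE from limma. Irf7, Rsad2, Bst2 and Epsti1 (filled circles) passed a nominal p under 0.05, and of the 3 gamma-induced GTPases (purple) Gbp3 and Iigp1 lay above 0.

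The count of lower members depended on single arrays. It was 12 without VD(−) single 3, 7 without VD(−) pool 2, and 2 without VD(−) single 1, VD(−) single 2, VD(−) pool 1, VD(+) single 1, VD(+) single 3, VD(+) pool 1 or VD(+) pool 2, each left out alone. Without both VD(−) single 1 and VD(−) pool 1, an alternative chosen after seeing the data, it was 1, Epsti1 being that member. It was also 1 in the 7 arrays without Y-linked signal and in a fit with the Y-linked mean minus Xist, the RNA of the inactive X, as a covariate. The share of all probe sets called was not counted in these settings, so the counts have no background beside them.

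Epsti1, an interferon-induced gene first described in epithelial cells cultured with stroma, gave the clearest difference. It was at 6.37, 6.33, 6.35, 6.53 and 6.40 in VD(−) and at 6.93, 6.65, 7.02, 6.82 and 6.89 in VD(+). Every VD(−) array was below every VD(+) array. The VD(−) arrays spanned 0.20, less than any other member's. The log2 fold change was −0.47 (SE 0.08), adjusted p = 0.0817 (limma) and exact permutation p = 0.00794, the smallest that 5 arrays against 5 allow. This permutation p, like those of other members below, is not adjusted for the number of genes tested. Without VD(−) single 1 and pool 1, the arrays in which most other members were lowest, it was −0.51, and with the Y-linked covariate it was −0.52. Its RefSeq window, printed above, holds neither the ISRE core nor the gamma-activated site. Epsti1 is 1 of 15 members without a core, among the 29 with a window. Irf7 and Oasl2, which were low in VD(−) single 1 and pool 1, are also among the 15. A link between a core and the values was not tested.

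Among the transcription factors, Irf7, the factor that amplifies type I interferon production, fell. It was at 5.70, 6.43, 6.96, 5.64 and 6.56 in VD(−) and at 7.05, 6.74, 6.74, 6.78 and 6.64 in VD(+). VD(−) single 1 and pool 1 were about 1 log2 unit under the VD(+) arrays, while VD(−) single 3 lay above all VD(+) arrays but 1. The log2 fold change was −0.53 (SE 0.23, adjusted p = 0.692), the exact permutation p was 0.079, and the nominal call was lost under 15 of 23 alternatives. The difference shrank to −0.39 without VD(−) single 1, −0.38 without VD(−) pool 1, −0.14 without both, −0.099 in the arrays without Y-linked signal and −0.023 with the Y-linked covariate. Irf9, the DNA-binding subunit of the type I complex, was at 6.60, 6.91, 7.46, 6.48 and 7.10 in VD(−) and at 7.06, 6.99, 6.92, 6.97 and 6.94 in VD(+). Its VD(−) values fell on both sides of a narrow VD(+) range, 3 below all and 2 above all VD(+) arrays, and the difference was −0.06 (SE 0.16). Stat2, which is part of that complex, had 0.01 (SE 0.10).

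**Figure D2:**
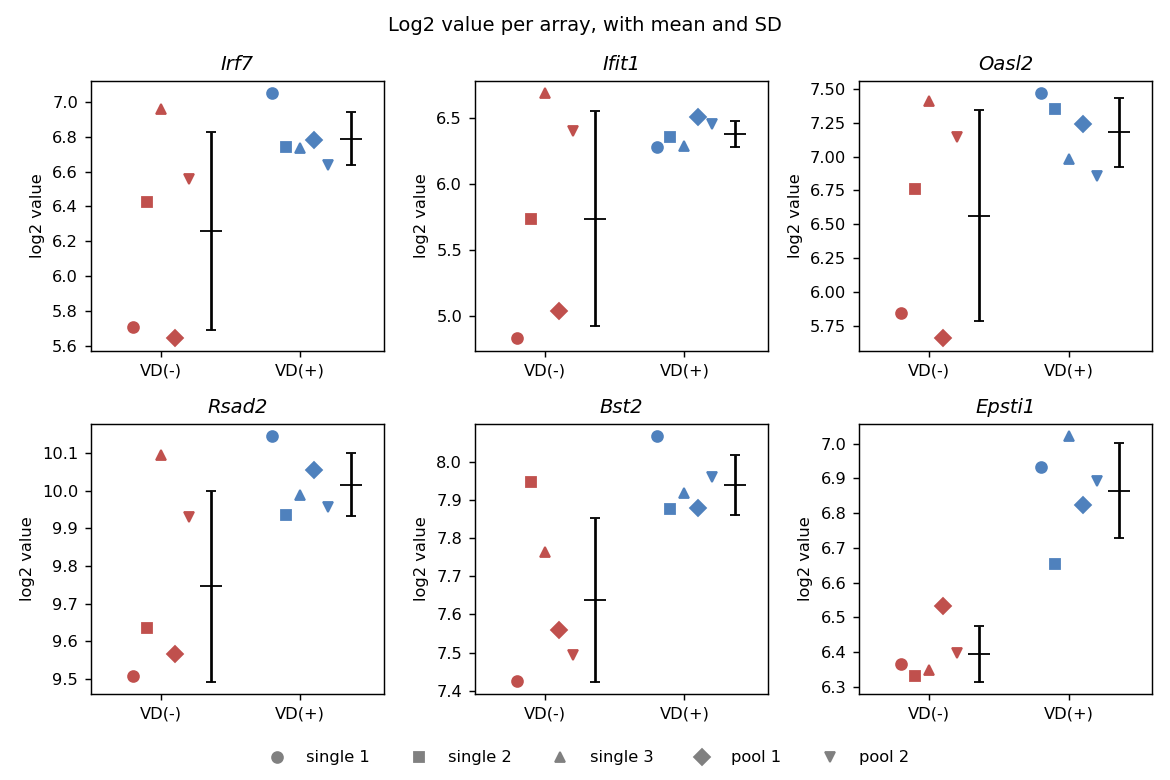
Log2 value (y axis, its own scale in each panel) of 6 members on each array of VD(−) (red, left) and VD(+) (blue, right) recipient BM, with the mean and SD of 5 arrays in black. Irf7, Ifit1, Oasl2 and Rsad2 are low in VD(−) single 1 (circle) and pool 1 (diamond) and not in VD(−) single 3 (triangle), Bst2 is low in 4 VD(−) arrays, and Epsti1 is low in all 5.

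None of the 5 sensors of foreign nucleic acid passed the nominal test. All 5 lay below 0, against 50.9% of all probe sets, with a median of −0.12. Dhx58 (LGP2), a helicase that tunes the RNA sensors, was at 4.95, 5.15, 5.33, 4.80 and 5.48 in VD(−) and at 5.55, 5.66, 5.40, 5.17 and 5.15 in VD(+), a difference of −0.24 (SE 0.15). Its groups overlapped, with VD(−) single 1 and pool 1 the lowest 2 of the 10 arrays. Eif2ak2 (PKR), a kinase that stops translation on double-stranded RNA, was at 6.69, 6.95, 7.26, 6.64 and 6.97 in VD(−) and at 7.21, 6.94, 7.05, 7.23 and 6.94 in VD(+), a difference of −0.17 (SE 0.12). VD(−) pool 1 and single 1 were again lowest and VD(−) single 3 was the highest array of all. Ifih1 (MDA5) and Ddx58 (RIG-I), the RNA helicase sensors, had −0.05 (SE 0.10) and −0.09 (SE 0.12), and Zbp1, a sensor of Z-form nucleic acid, had −0.12 (SE 0.17).

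The IFIT and OAS families bind foreign RNA or make the oligoadenylates that activate RNase L. They had the lowest median of the role groups, −0.43 over 7 genes. Of the 7 genes 6 were below 0, against 50.9% of all probe sets, and none passed the nominal test. Ifit1, which blocks translation of viral RNA, was at 4.83, 5.73, 6.69, 5.03 and 6.40 in VD(−) and at 6.28, 6.36, 6.29, 6.50 and 6.45 in VD(+). Oasl2, an oligoadenylate synthetase-like protein, was at 5.85, 6.76, 7.41, 5.65 and 7.14 in VD(−) and at 7.47, 7.35, 6.98, 7.24 and 6.85 in VD(+). In both genes the VD(−) arrays formed a wide ladder, with single 1 and pool 1 at the bottom, single 2 below all VD(+) arrays and single 3 and pool 2 within or above the VD(+) range. The log2 fold change was −0.64 (SE 0.32, adjusted p = 0.738, exact permutation p = 0.151) for Ifit1 and −0.62 (SE 0.32, adjusted p = 0.745, exact permutation p = 0.159) for Oasl2. Oas3 had −0.47 (SE 0.30), Ifit3 −0.43 (SE 0.26), Oas2 −0.36 (SE 0.33) and Oasl1 −0.26 (SE 0.15). Ifit2 had 0.01 (SE 0.08), with a VD(−) span of 0.38. Ifit1 and Oasl2 passed the nominal test without VD(−) single 3 (−0.88 and −0.83) or VD(−) pool 2 (−0.81 and −0.76). Without VD(−) single 1 and pool 1 they had −0.10 and −0.07, in the arrays without Y-linked signal −0.17 and −0.09, and with the Y-linked covariate 0.0091 and 0.050.

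The genes of ISG15 conjugation had VD(−) arrays on both sides of VD(+). Usp18, the protease that removes ISG15 and dampens the type I receptor, was at 5.40, 6.40, 6.80, 5.50 and 6.47 in VD(−) and at 6.47, 6.16, 6.15, 6.41 and 6.22 in VD(+). Herc6, the ISG15 ligase of mice, was at 6.58, 6.88, 7.15, 6.76 and 7.14 in VD(−) and at 6.83, 7.01, 6.74, 7.03 and 6.75 in VD(+). Usp18 was below all VD(+) arrays in VD(−) single 1 and pool 1 and above them all in VD(−) single 3, and the mean difference was −0.17 (SE 0.25). Herc6 had 0.03 (SE 0.12) and Trim25, a ubiquitin and ISG15 ligase, −0.03 (SE 0.16).

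PARP9, its partner DTX3L and PARP14 act on ADP-ribose and ubiquitin marks in the interferon response. Dtx3l was at 6.32, 6.57, 7.14, 6.56 and 6.60 in VD(−) and at 6.45, 6.61, 6.41, 6.64 and 6.55 in VD(+), a difference of 0.11 (SE 0.13). VD(−) single 3 alone stood above the VD(+) range and VD(−) single 1 alone below it. Parp14 was at 6.60, 6.89, 7.31, 6.58 and 7.05 in VD(−) and at 6.91, 6.93, 6.85, 7.21 and 6.94 in VD(+), a difference of −0.08 (SE 0.14). Parp9 had −0.02 (SE 0.11), and the 3 genes showed no difference beyond their spread.

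Of 9 antiviral effectors 7 were below 0 and 2, Bst2 and Rsad2, fell, against 50.9% and 3.23% of all probe sets. Bst2 (tetherin), which holds budding virions on the cell surface, was at 7.42, 7.95, 7.76, 7.56 and 7.49 in VD(−) and at 8.07, 7.88, 7.92, 7.88 and 7.96 in VD(+). Only VD(−) single 2 reached the VD(+) range. The log2 fold change was −0.30 (SE 0.10, adjusted p = 0.564, exact permutation p = 0.032), and the nominal call was lost without VD(−) single 1 and pool 1 together (−0.20), in the single samples alone (−0.24), with the Y-linked covariate (−0.12) and in the arrays without Y-linked signal (−0.085). Rsad2 (viperin), which makes a chain-terminating nucleotide, was at 9.51, 9.64, 10.09, 9.56 and 9.93 in VD(−) and at 10.14, 9.94, 9.99, 10.05 and 9.96 in VD(+). Here 4 VD(−) arrays lay below all VD(+) arrays and VD(−) single 3 within them, with a difference of −0.27 (SE 0.12, adjusted p = 0.683, exact permutation p = 0.079), and its nominal call was lost under 15 of 23 alternatives, single arrays left out included. The difference was −0.13 without VD(−) single 1 and pool 1, −0.15 in the arrays without Y-linked signal and −0.10 with the Y-linked covariate.

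Sp100, a protein of nuclear bodies, just missed the nominal test at −0.22 (SE 0.10). Slfn8 and Slfn5, members of the Schlafen family, had −0.19 (SE 0.18) and −0.02 (SE 0.15), and Trim30a −0.04 (SE 0.18). Cmpk2, a mitochondrial nucleotide kinase encoded beside Rsad2, had −0.07 (SE 0.09). Isg20, an RNA exonuclease, and Samd9l, a restriction factor, lay above 0 at 0.07 (SE 0.08) and 0.08 (SE 0.14).

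Of the other induced genes, Xaf1, which opposes an inhibitor of apoptosis, was at 5.75, 6.31, 6.83, 6.10 and 6.52 in VD(−) and at 6.49, 6.70, 6.52, 6.51 and 6.52 in VD(+), a difference of −0.25 (SE 0.17). VD(−) single 1 was the lowest and VD(−) single 3 the highest of the 10 arrays. Rtp4, a receptor transport protein, had −0.19 (SE 0.30) with the widest VD(−) span of the members, 1.87 against 0.39 in VD(+). Ifi27 had 0.06 (SE 0.10), Ifi35 −0.06 (SE 0.13) and Tor3a, a torsin-family ATPase, −0.0043 (SE 0.09).

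Of the 3 gamma-induced GTPases, Iigp1 and Gbp3 lay above 0 and Irgm1 below, and none passed the nominal test. Iigp1, which attacks the vacuoles of parasites, had the highest log2 fold change of the members, 0.38 (SE 0.19, adjusted p = 0.738, exact permutation p = 0.087). It was at 5.40, 4.98, 5.35, 5.97 and 5.37 in VD(−) and at 4.53, 5.27, 5.04, 5.05 and 5.31 in VD(+), with 4 VD(−) arrays above all VD(+) arrays and VD(−) single 2 within them. Gbp3, a guanylate-binding protein, was at 5.73, 6.36, 6.19, 6.0 and 6.17 in VD(−) and at 5.87, 5.95, 5.91, 6.0 and 5.79 in VD(+), a difference of 0.19 (SE 0.11, exact permutation p = 0.143). VD(−) single 1 was the lowest array for Gbp3, and without it the difference was 0.28 and passed the nominal test. Iigp1 passed without VD(−) single 2 (0.49), and had 0.20 without VD(−) single 1 and pool 1, 0.128 in the arrays without Y-linked signal and 0.130 with the Y-linked covariate. Gbp3 had 0.34, 0.37 and 0.39 in the same 3 settings. Irgm1, which regulates the other immunity-related GTPases, was at 7.01, 7.38, 7.54, 7.35 and 7.63 in VD(−) and at 7.25, 7.65, 7.80, 7.65 and 7.37 in VD(+), a difference of −0.16 (SE 0.14), with VD(−) single 1 lowest and the other arrays of both groups mixed.

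Set side by side, the median log2 fold change was −0.11 over the 36 type I targets and 0.19 over the 3 GTPases. Of these, 29 and 1 were below 0, against 50.9% of all probe sets. The difference of the medians was −0.29 and was not tested. It was −0.14 without VD(−) single 1 and pool 1, −0.045 in the arrays without Y-linked signal and −0.036 with the Y-linked covariate. In the further lists described below, the median was −0.06 over 53 type I targets and −0.06 over 28 targets of interferon gamma. The contrast was not seen there, and here it rests on 3 GTPases. Per array, the mean log2 difference from the VD(+) mean was −0.53, −0.09, 0.23, −0.47 and 0.02 in VD(−) and 0.03, 0.05, −0.06, 0.06 and −0.09 in VD(+) for the type I targets. For the GTPases it was −0.12, 0.08, 0.20, 0.28 and 0.23 in VD(−) and −0.28, 0.12, 0.09, 0.07 and 0.00 in VD(+). Among the VD(−) arrays the sets parted most in pool 1, where the type I mean less the GTPase mean was −0.75, and least in single 3 at 0.03. The group values of the type I mean were −0.17 ± 0.32 over the VD(−) arrays and 0 ± 0.07 over the VD(+) arrays (SD over 5 arrays each), so the VD(−) mean lay less than its own SD from the VD(+) mean, which is 0 by construction.

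The pattern that the members shared most was not the difference between groups but the spread inside the VD(−) group. VD(−) single 1 had all 36 type I targets below the VD(+) mean and pool 1 had 32, whereas single 2 had 22, pool 2 had 14 and single 3 had 4. In the VD(+) arrays the number lay between 12 and 28. The lowest VD(−) array was single 1 or pool 1 in 36 of the 39 members, against 39.1% of all genes, and the highest was single 3 in 27, against 22.1%. Both VD(−) single 1 and pool 1 were below all VD(+) arrays in 22 of the 39, against 7.59% of all genes. Over 10692 genes with a mean above the median of probe sets, the 3 shares were 41.0%, 25.2% and 9.65%.

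**Figure D3:**
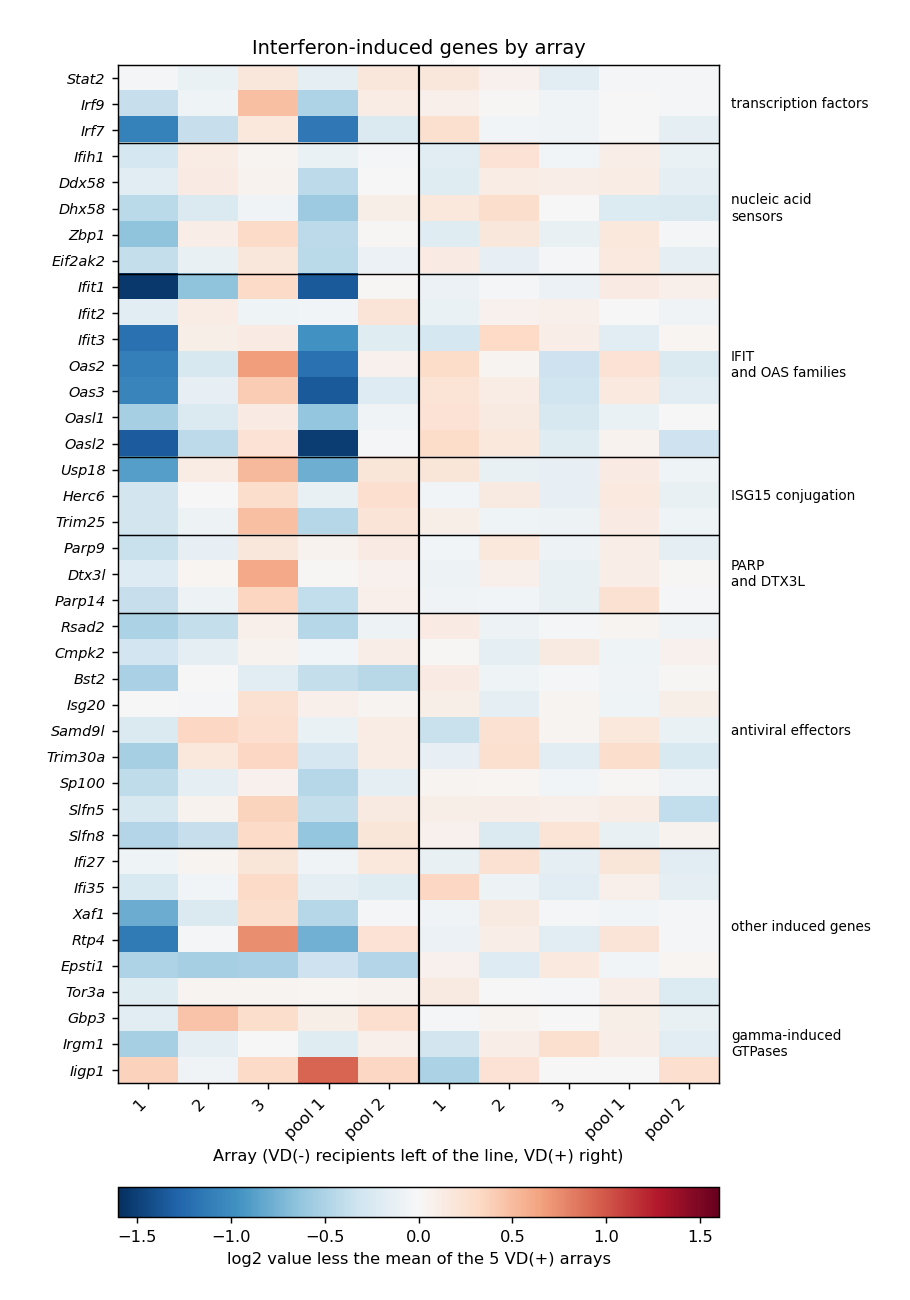
Log2 value less the mean of the 5 VD(+) arrays (colour) for 39 interferon-induced genes (rows, by role) on 10 arrays (columns, VD(−) left of the line). The blue columns are VD(−) single 1, with all 36 type I targets below 0, and VD(−) pool 1, with 32, and the red one is VD(−) single 3, with 4 below 0, while the row of Epsti1 is blue in all 5 VD(−) arrays.

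The SD between arrays was larger in VD(−) than in VD(+) in 34 of the 39 members, against 49.7% of all genes, and the median ratio of the SDs was 1.88 in the members and 0.99 in all genes. Over the 10692 genes with a mean above the median of probe sets, the share was 53.1% and the median ratio 1.04. The median span from lowest to highest array was 0.68 in VD(−) and 0.37 in VD(+) for the members, and 0.36 in VD(−) and 0.37 in VD(+) for all genes. It was widest in the IFIT and OAS families, at 1.75 in VD(−) and 0.54 in VD(+). Their mean was −0.99 in VD(−) single 1 and −1.01 in VD(−) pool 1 relative to the VD(+) mean, with −0.21, 0.26 and −0.03 in VD(−) singles 2 and 3 and pool 2. Epsti1, Tor3a, Ifi27, Isg20 and Ifih1 were the members with the larger SD in VD(+). The 14 members with an ISRE core in a window had a median log2 fold change of −0.17 and a median VD(−) span of 0.63, and the 15 members without one had −0.06 and 0.57.

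**Figure D4:**
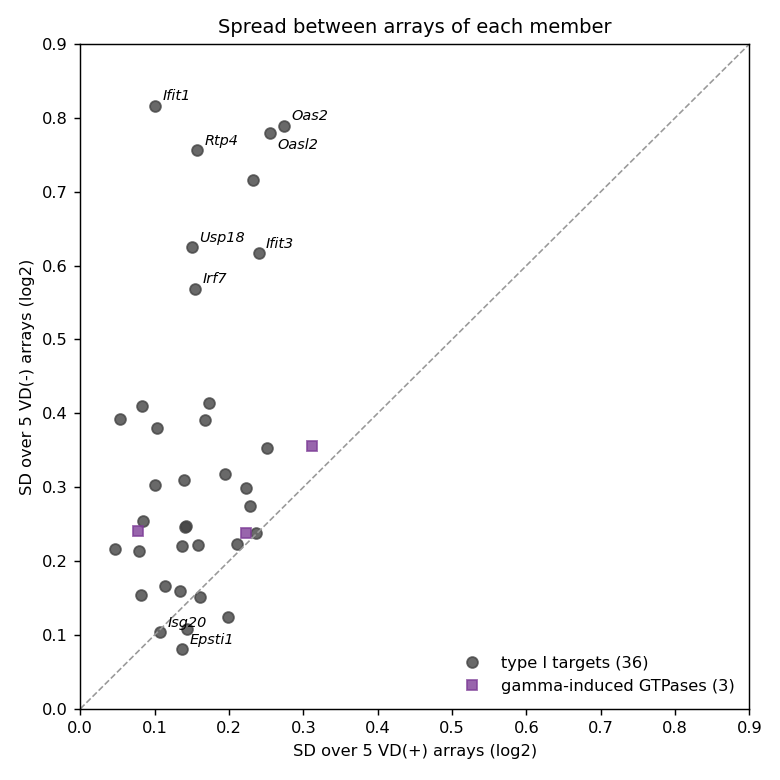
SD over the 5 VD(−) arrays (y axis, log2) against SD over the 5 VD(+) arrays (x axis, log2) for each of 39 interferon-induced genes, with the dashed line at equal SD. 34 members lie above the line, led by Ifit1, Oas2, Oasl2 and Rtp4, and Epsti1 lies below it.

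Other signals moved with the same arrays. The Y-linked mean was high in VD(−) single 1 and pool 1 (6.64 and 6.80), in which the type I targets were low, and also in VD(−) pool 2 (5.31), in which they were not low (0.02). Xist was at 7.76, 10.08, 10.33, 8.14 and 9.83 in VD(−) and between 10.16 and 10.30 in VD(+). Both signals varied mainly inside the VD(−) group, so group and Y-linked signal can be separated only in part. The 7 arrays without Y-linked signal hold VD(−) singles 2 and 3 as their only VD(−) arrays. The settings below therefore lean on many of the same arrays and are not independent of each other. When the difference between the Y-linked mean and Xist was added to the fit, the median of the type I targets was 0.094, with 1 member lower and 3 higher at a nominal p. In the 7 arrays without Y-linked signal it was 0.083, and without VD(−) single 1 and pool 1 it was 0.055, with 1 member lower and 1 higher in each. Leaving out VD(−) single 1 and pool 1 was chosen after seeing the data. Most members were lowest in those arrays, so a higher median was built into that choice. The shares of all probe sets called in these fits were not counted.

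Cell type markers varied too. The mean of 9 B cell markers was 8.10, 7.18, 6.75, 8.33 and 7.57 in VD(−) and between 7.35 and 7.88 in VD(+), highest in VD(−) single 1 and pool 1 and lowest in VD(−) single 3, and 7 of the 9 markers had a log2 fold change below 0. The mean of 11 T and NK cell markers was 5.58, 6.10, 6.35, 5.68 and 6.20 in VD(−) and between 5.78 and 6.18 in VD(+). The 9 markers of plasmacytoid dendritic cells, the main makers of type I interferon, averaged 6.43, 6.46, 5.96, 6.48 and 6.15 in VD(−) and between 6.07 and 6.45 in VD(+), with 6 of 9 above 0. The 12 macrophage markers, of which 11 lay above 0, averaged 7.72, 7.53, 7.41, 8.05 and 7.55 in VD(−) and between 7.0 and 7.65 in VD(+). Means of 9 monocyte markers lay between 8.29 and 8.43 in VD(−) and between 8.24 and 8.38 in VD(+), and means of 12 neutrophil markers lay between 11.5 and 11.9 in VD(−) and between 11.6 and 11.8 in VD(+). No list had a measured marker at 0. The part of the Y-linked signal and of these cell types in the values of the members was not tested.

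**Figure D5:**
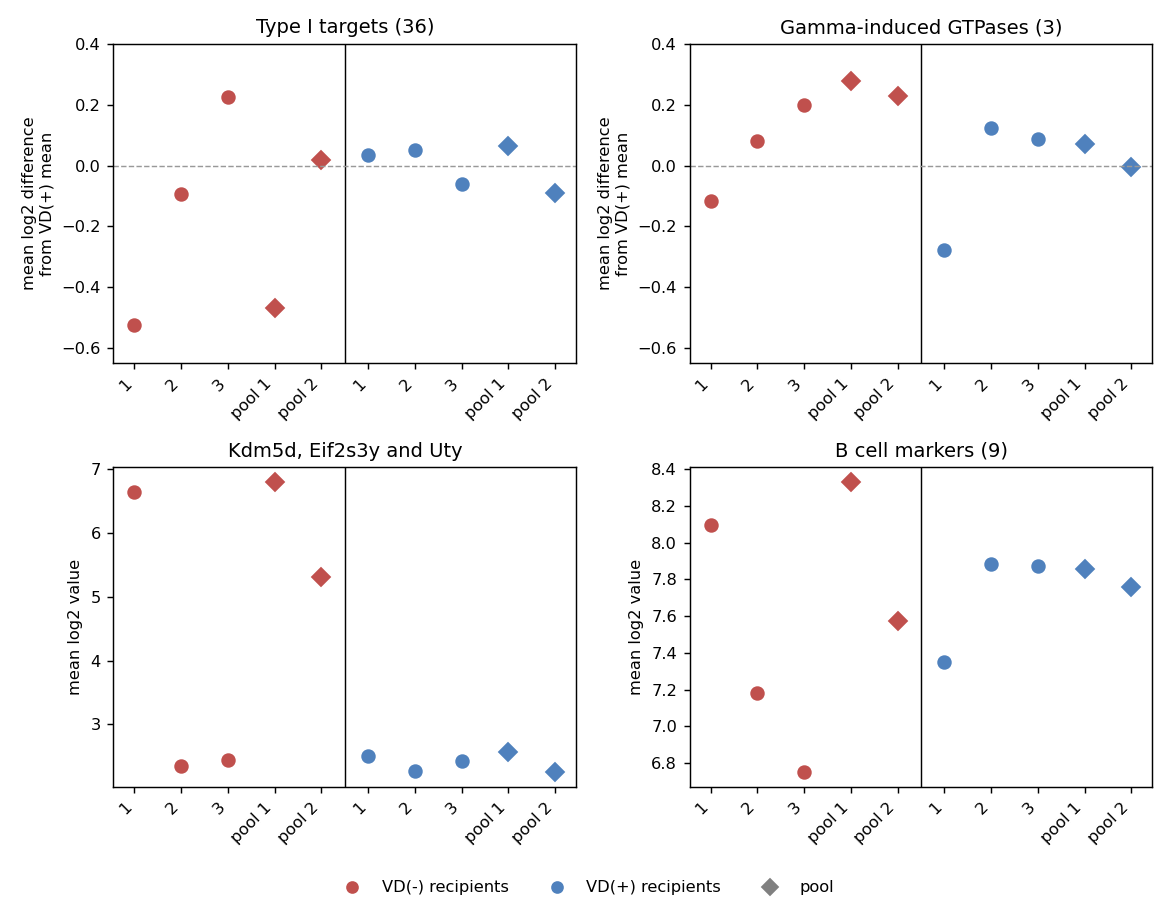
Values per array (x axis, VD(−) left of the line in red, VD(+) in blue, diamonds for pools) of the mean log2 difference from the VD(+) mean of 36 type I targets and 3 gamma-induced GTPases, and of the mean log2 value of 3 Y-linked genes and 9 B cell markers. VD(−) single 1 and pool 1 are lowest for the type I targets (−0.53 and −0.47) and highest for the B cell markers (8.10 and 8.33), and VD(−) single 3 is the reverse.

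The rest of the pathway was read from lists drawn from general knowledge, also with earlier results of these data known. Over all probe sets 3.23% fell and 3.85% rose at a nominal p, so 0 called in lists this short is near the background. Of 16 interferon genes 0 passed the nominal test in either direction, with a median of 0.06, and Ifng, the gamma interferon, had 0.16 (SE 0.10), Ifne 0.15 (SE 0.12) and Ifnab 0.22 (SE 0.18). Of 9 receptor chains and kinases 0 passed, with Il10rb, a chain of the interferon lambda receptor, at 0.17 (SE 0.11), Ifngr2, a chain of the gamma receptor, at 0.15 (SE 0.09) and Jak1 at −0.10 (SE 0.08). Of 11 signal transducers and regulatory factors 0 passed, with Irf3, which starts interferon transcription after sensing, at 0.18 (SE 0.09), Pias1 at 0.07 (SE 0.06) and Ptpn6, a phosphatase that dampens signalling, at −0.06 (SE 0.06). Of 13 sensing genes and adaptors, 1 rose and 0 fell, against 3.85% and 3.23% of all probe sets. It was Tlr8, a receptor for RNA in endosomes, at 5.21, 6.06, 6.05, 5.47 and 5.70 in VD(−) and between 5.20 and 5.48 in VD(+), a difference of 0.44 (SE 0.16, adjusted p = 0.618). Tlr3 had 0.21 (SE 0.10) and Unc93b1, which carries these receptors to endosomes, −0.13 (SE 0.07).

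A further list of 53 type I targets had 33 genes below 0 and a median of −0.06, and 5 fell and 2 rose at a nominal p. Over all probe sets 50.9% were below 0, 3.23% fell and 3.85% rose, so that the share that rose was near the background. Ddx60, a helicase cofactor of RNA sensing, fell by 0.52 (SE 0.19, adjusted p = 0.629), and Uba7, the activating enzyme of ISG15, fell by 0.21 (SE 0.07, adjusted p = 0.608). Trim21, an antibody receptor in the cytosol and ubiquitin ligase, rose. It was at 6.84, 6.76, 6.95, 6.76 and 6.83 in VD(−) and at 6.51, 6.59, 6.67, 6.61 and 6.56 in VD(+), so that every VD(−) array was above every VD(+) array, with a difference of 0.24 (SE 0.06, adjusted p = 0.415). The share of all probe sets that were higher without overlap was not counted. The lowest VD(−) array was single 1 or pool 1 in 39 of the 53 (73.6%), against 39.1% of all genes. The SD was larger in VD(−) in 38 (71.7%), against 49.7% of all genes.

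A further list of 28 targets of interferon gamma had 23 genes below 0 and a median of −0.06, and 2 fell and 2 rose at a nominal p, beside the same shares of 50.9%, 3.23% and 3.85% over all probe sets. Gbp9 fell by 0.36 (SE 0.11, adjusted p = 0.482), with 6.43, 6.46, 6.23, 6.43 and 6.38 in VD(−) and 6.42, 6.83, 7.03, 6.71 and 6.74 in VD(+). Cxcl9 and Cxcl10, chemokines that draw T cells, rose by 0.60 (SE 0.22, adjusted p = 0.629) and 0.45 (SE 0.15, adjusted p = 0.571). Cxcl9 was at 6.48, 5.89, 5.85, 6.80 and 6.13 in VD(−) and at 5.10, 5.46, 6.12, 5.64 and 5.84 in VD(+), with VD(−) pool 1 and single 1 highest, the arrays in which the type I targets were lowest. Among guanylate-binding proteins related to Gbp3, Gbp8 had 0.23 (SE 0.18) and Gbp4 −0.22 (SE 0.12). In this list the lowest VD(−) array was single 1 or pool 1 in 11 of the 28 (39.3%), near the 39.1% of all genes.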

How the data were processed

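Total RNA of recipient marrow was hybridised to 10 arrays, 5 per group. The deposited log2 values were made by the authors with RMA in Partek Genomics Suite, which corrects background, gives the arrays 1 common distribution and summarises probes, so that differences in total RNA are removed before any comparison. The genome build and any filter are not given in the sources used for this work, and 0 value columns were left unused. The probe sets are those of a whole-transcript gene array, although a miRNA array is named in the methods.

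Gene names came from the array annotation, in which 21789 of 35556 probe sets list 1 gene, 1621 several and 12146 none. The probe set with the highest mean was used for each gene. Groups were taken from the sample labels. Linear models (lmFit and eBayes, limma 3.58.1, run in R 4.3.3) gave two-sided tests, with the Benjamini-Hochberg adjustment over all probe sets, and single genes also with an exact two-sided permutation test of 5 arrays against 5. The fit was tested on simulated data. Alternatives were the methods' t-test, cyclic loess, array weights, a trended robust spread, a filter on dim probe sets, pool, Y-linked signal or replicate number in the model, subsets of the arrays, and each array left out.

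Members and lists were chosen with earlier results of these data known. Every member is named, and array values are given for the 2 members of lowest nominal p in each role group of type I targets, for the GTPases and for the member with the highest log2 fold change. Of each pathway list the 3 genes of lowest nominal p are named. Gbp4, Gbp8 and Igll1 were named after their values were seen. Promoter windows are from RefSeq, build GRCm38.p6, and motifs were counted on both strands. The number of arrays limits the precision.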

Additional observations from a re-analysis of the deposited data

Results flagged for a closer look

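In 4 of 82 groups of 5 arrays 1 array lay far from the others, its gap to the nearest being more than 0.71 of the group's whole range, and chance alone gives about 1 in 20 such groups. Tor3a was at 5.67 in VD(−) single 1, below 5.89 to 5.92 in the other VD(−) arrays. Parp14 was at 7.21 in VD(+) pool 1, above 6.85 to 6.94 in the other VD(+) arrays. Xaf1 was at 6.70 in VD(+) single 2, above 6.49 to 6.52 in the other VD(+) arrays, and Slfn5 was at 5.94 in VD(+) pool 2, below 6.42 to 6.45 in the others.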

How the results depend on the processing

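The number of members lower at a nominal p, 4 with all arrays, was 2 by the methods' t-test, 2 in the single samples alone, 2 in the pools alone, 1 with the Y-linked mean minus Xist added as a covariate, 1 in the arrays without Y-linked signal, 1 without VD(−) single 1 and pool 1 (added after seeing the data) and between 2 and 12 with each array left out. The number higher, 0 with all arrays, was 3 with that covariate, 1 without the arrays with Y-linked signal, 1 without VD(−) single 1 and pool 1, 1 with gene means over all probe sets and 0 to 1 with each array left out. The shares of all probe sets called under these alternatives were not counted. Past an adjusted p there was 1 member, Epsti1, among the brighter probe sets alone and with gene means, and 0 otherwise. No member had more than 1 probe set here, so gene means left member values unchanged and altered only which other values entered the fit. The type I median moved to 0.094, 0.083 and 0.055 with the covariate, without the arrays with Y-linked signal and without VD(−) single 1 and pool 1, and ranged from −0.22 to −0.0079 with each array left out. The type I median less the GTPase median moved to −0.036 with the covariate and −0.045 without the arrays with Y-linked signal. The GTPase median was 0.12 to 0.28 with each array left out. The causes were not tested.

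Some members that did not pass the test changed direction. With the covariate the log2 fold change was 0.26 for Irf9, 0.046 for Eif2ak2, 0.0091 for Ifit1, 0.050 for Oasl2, 0.41 for Usp18, 0.17 for Parp14 and 0.087 for Xaf1. Without the arrays with Y-linked signal it was 0.21 for Irf9, 0.031 for Eif2ak2, 0.32 for Usp18, 0.13 for Parp14 and 0.024 for Xaf1. Without VD(−) single 1 and pool 1 it was 0.18 for Irf9, 0.27 for Usp18, 0.11 for Parp14 and 0.0065 for Xaf1. In the single samples alone it was 0.0035 for Irf9 and 0.033 for Parp14, and in the pools alone −0.016 for Dtx3l. With 1 array left out at a time, Irf9 ranged from −0.20 to 0.043, Usp18 from −0.34 to 0.011, Dtx3l from −0.020 to 0.18 and Herc6 from −0.031 to 0.11.

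With the replicate number as a block the count of lower members was 3. The correlation of same-numbered arrays, in their deviations from the group means over the brighter probe sets, lay between −0.10 and 0.12. These values show no pairing by number, but so broad a measure cannot exclude one.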
